A study of Mus musculus with 28 samples.

Results

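The genes described here are the 50 chromosomal neighbours of Aqp3 on mouse chromosome 4, out of 56748 genes in the count table. They are named genes that start within 5 Mb of Aqp3, chosen for their position, out of 232 annotated genes of that stretch in the table. 10 lie before Aqp3 on the reference strand and 40 lie beyond it, from Aco1 at -0.955 Mb to Polr1e at 3.92 Mb (distances between gene starts on GRCm38). 47 of the 50 had enough counts to be tested, and Spink4, Sit1 and Pax5, with 111, 103 and 153 counts summed over 28 libraries, did not. Whole kidneys were profiled by RNA sequencing from mice carrying wild-type Aqp3 (WT), an acetylated-state mimetic of Aqp3 (Q) or a deacetylated-state mimetic (R), in both sexes. Each genotype had 5 male libraries, and there were 5 female libraries of WT, 5 of Q and 3 of R. All mice ate pelleted food with tap water, lived in a 12 h light and 12 h dark cycle, had no treatment that the labels name, and were killed between ZT2 and ZT5 (hours after lights on). Age, strain, the residue that was changed and the way the lines were made and bred are not given in the sources used here. Gene counts do not reveal which codon a read carries, and library genotypes were therefore taken from the labels.

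Aqp3 encodes a channel for water and glycerol in principal cells of the collecting duct. An engineered allele is inherited together with the sequence around it, so genes beside the changed site are the ones that share whatever else that stretch of chromosome carries, be it a strain difference or a change left by the editing. The neighbours have no common function. They include chaperones and ubiquitin enzymes (Dnaja1, Bag1, Vcp, Ube2r2), proteins of DNA repair and RNA processing (Aptx, Fancg, Nol6), metabolic and sugar-handling enzymes (Aco1, Grhpr, B4galt1, Galt), cytoskeletal and vesicle proteins (Tln1, Tpm2, Clta), and receptors and immune-cell genes (Npr2, Il11ra1, Cd72). The comparisons ask whether any of them differs between Q or R kidneys and WT kidneys.

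The libraries held 14825417 to 21403804 counts, of which 0.355% to 0.482% fell in the 50 neighbours. Markers of kidney tubule and glomerulus summed to between 9640 and 14100 CPM (counts scaled to a common library size by the trimmed mean of M values), and Aqp3 itself lay between 93.5 and 137 CPM with no separation of the genotypes. In 26 of 28 libraries 9.56% to 12.1% of counts were mitochondrial, and the 2 others were male Q replicate 4 (7.74%) and female Q replicate 5 (3.94%). These 2 libraries stand apart from their groups. Several results that rest on them are given with and without them, and the other Q values and counts include both. Female WT replicate 2 had 0.515 CPM of Xist, the X-inactivation RNA, where the other female libraries had 214 to 435 CPM, so its Xist goes against its label for sex. On the first principal component over all tested genes it lay at 43.39, among the other female libraries (31.35 to 44.19) and apart from the male ones (-54.93 to -24.39). Nothing in the labels says that libraries came from separate litters or batches, so p-values measure only the spread between these libraries.

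Upstream sequences of 4 neighbours are shown because they belong to the results below: the stretch between Bag1 and Chmp5, a divergent pair of genes before Aqp3, and the windows of 3 genes that were higher in male kidneys and hold a paired heat shock unit. Each is the 250 bases before a RefSeq start on GRCm38.p6, 5′ to 3′ on the gene's strand, and capitals mark a match to GAANNTTC. Chmp5 is at chr4:40948303-40948552 on the plus strand, Dnaja1 at chr4:40722218-40722467 on the plus strand, Vcp at chr4:43000508-43000757 on the minus strand and B4galt1 at chr4:40853985-40854234 on the minus strand.
Chmp5: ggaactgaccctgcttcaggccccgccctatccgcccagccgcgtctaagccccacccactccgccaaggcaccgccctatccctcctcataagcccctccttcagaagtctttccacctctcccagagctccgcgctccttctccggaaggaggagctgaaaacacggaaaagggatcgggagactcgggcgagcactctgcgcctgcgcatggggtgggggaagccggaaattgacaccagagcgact
Dnaja1: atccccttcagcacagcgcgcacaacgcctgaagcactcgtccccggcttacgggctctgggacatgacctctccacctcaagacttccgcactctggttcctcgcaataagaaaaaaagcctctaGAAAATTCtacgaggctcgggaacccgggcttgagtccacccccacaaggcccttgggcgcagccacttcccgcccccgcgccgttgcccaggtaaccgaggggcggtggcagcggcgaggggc
Vcp: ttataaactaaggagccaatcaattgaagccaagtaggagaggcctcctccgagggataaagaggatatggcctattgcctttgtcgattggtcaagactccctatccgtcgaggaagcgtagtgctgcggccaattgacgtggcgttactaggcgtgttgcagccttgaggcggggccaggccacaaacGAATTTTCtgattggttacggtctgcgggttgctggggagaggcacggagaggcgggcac
B4galt1: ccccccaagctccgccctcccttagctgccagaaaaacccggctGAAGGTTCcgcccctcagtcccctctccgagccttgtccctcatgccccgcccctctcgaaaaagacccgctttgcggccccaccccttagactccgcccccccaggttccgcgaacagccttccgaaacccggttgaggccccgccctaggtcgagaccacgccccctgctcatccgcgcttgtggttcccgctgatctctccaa
The letters searched were GAANNTTC, 2 adjoining inverted units of the heat shock element, which read the same on both strands. They were in 2582 of 32851 RefSeq promoter windows of 300 bases (7.86%) and in 5 of the 64 windows of the neighbours, those of Aco1, B4galt1, Clta, Dnaja1 and Vcp. Aco1 and Clta were not called between the sexes in WT by the edgeR test below. Grhpr, Car9, Dcaf12 and Ubap1 were called higher in WT males and hold no match. A link of these letters to sex was not tested. Dnaja1 has 3 RefSeq windows, and the other 2, at starts farther downstream, hold no match. The match began 124 bases before the first start of Dnaja1, 60 before that of Vcp and 206 before that of B4galt1. No match says only that these letters are not in a window. Windows were found for 47 neighbours. The Chmp5 stretch has 63.6% G and C, lies between 2 RefSeq gene starts 258 bases apart, and holds no match. By the GENCODE starts, used for the distances, Bag1 and Chmp5 start 113 bases apart.

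The neighbours spanned a wide range of kidney levels. Per kilobase of exon, the highest means over 28 libraries were 241 CPM per kb for Bag1, a cochaperone of Hsp70, 173 for Grhpr, the glyoxylate reductase that keeps oxalate low, 142 for Clta, a clathrin light chain, 128 for Ccdc107 and 109 for Hint2, a mitochondrial nucleotide hydrolase. Aco1, the cytosolic aconitase that doubles as iron-regulatory protein, followed at 85.2 CPM per kb. The lowest were Pax5, the B cell transcription factor, at 0.0335 and Dnai1, a dynein chain of motile cilia, at 0.107 CPM per kb. Mean levels were under 1 CPM for 5 neighbours and over 100 CPM for 11. Exons of 22 neighbours overlap those of another gene, in 21 cases on the opposite strand. The counting used no strand, so reads from an overlap could not be assigned to 1 gene by strand, and these values are less certain. The largest such overlap is 1423 bases between Tesk1 and Cd72. Il11ra1 has near-identical copies close by, and its value is uncertain for that reason.

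Among the 50, none of the 3 nearest on each side of Aqp3 passed the test in a genotype comparison. Before Aqp3 lie Nfx1, an RNA-binding repressor of transcription, Chmp5, a subunit of the ESCRT-III complex that sorts receptors into multivesicular bodies, and Bag1. Nfx1 was at 44.2, 44.7, 48.8, 52.2 and 52.6 CPM in male WT libraries, 46.1, 48, 48.6, 49.1 and 50.4 in Q males and 46.6, 47.2, 48.5, 51.2 and 54.1 in R males. In females Nfx1 was at 48.4, 49, 49.1, 50 and 51.6 CPM in WT, 45.6, 48.8, 49.5, 49.7 and 53.8 in Q and 42.8, 51.8 and 54.4 in R. The genotypes overlapped in both sexes. The log2 fold change of Nfx1 (SE) was -0.0029 ± 0.05 for Q against WT and 0.02 ± 0.06 for R against WT, each averaged over the sexes by edgeR.

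Bag1 was at 272, 293, 332, 348 and 359 CPM in WT males, 297, 313, 321, 333 and 568 in Q males and 292, 325, 358, 359 and 371 in R males. Female libraries held 291, 294, 304, 309 and 319 CPM of Bag1 in WT, 284, 284, 292, 337 and 378 in Q and 276, 299 and 309.5 in R. The highest Bag1 value was that of male Q replicate 4, and without it the male Q libraries lay inside the male WT range. Bag1 differed by 0.12 ± 0.09 for Q and 0.02 ± 0.10 for R against WT on the log2 scale, and the Q value was 0.0052 without the 2 libraries that stand apart. Chmp5 was at 115, 116, 122, 122 and 123 CPM in WT males, 111, 114, 114, 118 and 129 in Q males and 108, 125, 132, 133 and 137 in R males. For females the Chmp5 values were 119.8, 123, 124, 124 and 127 CPM in WT, 108, 108, 125, 133 and 182 in Q and 106, 115 and 117 in R. All 3 female R libraries were below all 5 female WT libraries, while the male R libraries spread around male WT on both sides. Chmp5 was the 1 neighbour whose libraries did not overlap in that comparison, where 3.94% of all tested genes did not overlap, and the edgeR log2 fold change was -0.13 ± 0.12 (adjusted p = 1).

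Beyond Aqp3 lie Nol6, a nucleolar protein of ribosome assembly, Ube2r2, a ubiquitin-conjugating enzyme that works with cullin ligases, and Ubap2, a ubiquitin-associated protein. Nol6 was at 31.8, 31.9, 32.6, 36.9 and 38.3 CPM in WT males, 35.3, 36.9, 37, 39.5 and 41.8 in Q males and 28.4, 29.2, 31.4, 36.2 and 37.9 in R males. Female values of Nol6 were 29, 31.7, 31.8, 32.5 and 32.6 CPM in WT, 27.6, 30.4, 33.5, 33.9 and 34.8 in Q and 29.5, 30.6 and 32 in R. The genotypes overlapped, with log2 fold changes of 0.09 ± 0.06 for Q and -0.05 ± 0.07 for R. Ube2r2 was at 153, 171, 175, 182 and 187 CPM in WT males, 178, 182, 184, 185 and 363 in Q males and 171, 182, 185, 188 and 216 in R males. In female kidneys Ube2r2 was at 165, 165, 165, 170.0 and 173 CPM in WT, 158, 163, 172, 182 and 203 in Q and 151, 158 and 172 in R. Male Q replicate 4, at 363 CPM, had far more Ube2r2 than any other library, and the other 4 male Q libraries lay within the male WT range. With all libraries the log2 fold change in Q males was 0.33 ± 0.14 (edgeR adjusted p = 0.917), and without the 2 libraries that stand apart it was 0.07. Ubap2 was at 51.5, 60.2, 63.2, 63.2 and 65.7 CPM in WT males, 49, 62.5, 65.8, 67.2 and 67.8 in Q males and 47.7, 52.3, 52.5, 52.7 and 65.1 in R males. Female libraries gave 48.5, 49.7, 54.8, 55 and 55.2 CPM of Ubap2 in WT, 22.7, 45.1, 57, 57.8 and 64.1 in Q and 46.1, 52.2 and 58.5 in R. The 2 libraries that stand apart were the lowest of their groups, and Ubap2 differed by -0.03 ± 0.11 for Q and -0.09 ± 0.12 for R. Without those 2 libraries the Q value of Ubap2 was 0.10, so its sign turned.

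**Figure D1:**
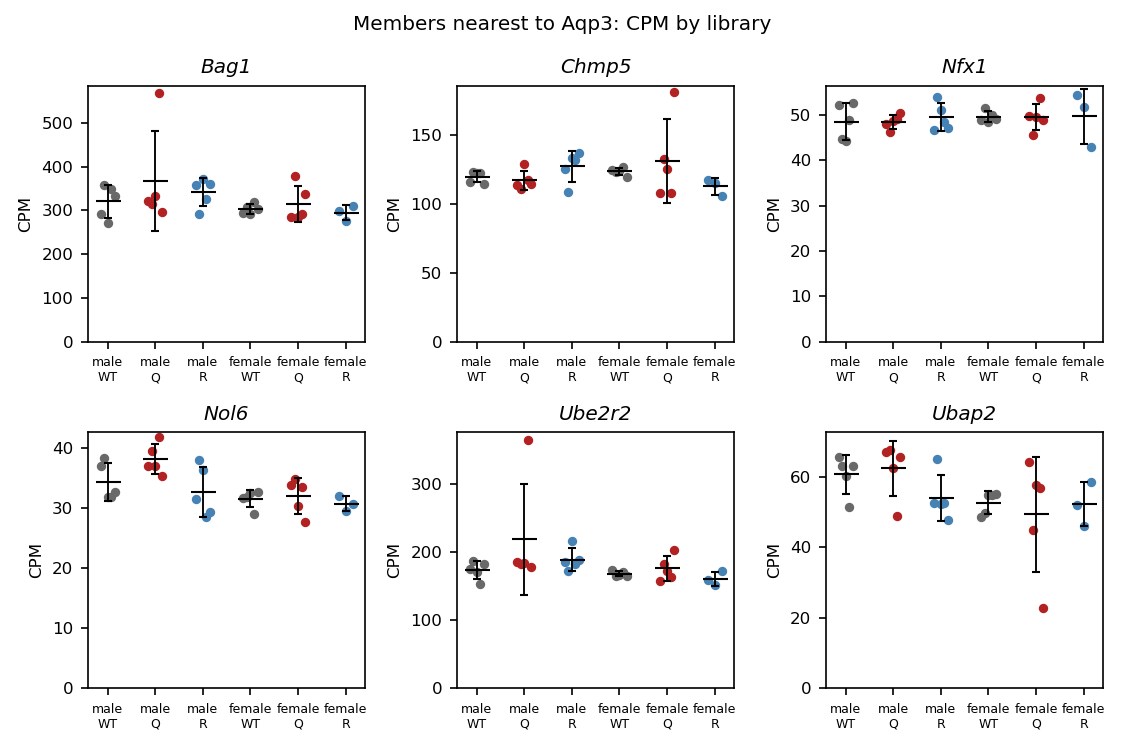
Level of the 6 neighbours nearest to Aqp3 in each library (y axis, CPM, from 0) by sex and genotype (x axis); points are libraries, and the bar with whiskers is the group mean ± SD. The genotypes overlap in each panel except Chmp5 in female R against female WT, and male Q replicate 4 stands high for Bag1 and Ube2r2.

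No neighbour passed an adjusted p of 0.05 in any comparison of Q or R with WT. The edgeR quasi-likelihood test called 0 of 47 for Q against WT over both sexes, in males and in females, and 0 of 47 for R against WT in the same 3 comparisons, and it called 0% of all 17573 tested genes in each. DESeq2 also called 0 neighbours in all 6, but the share of all tested genes that it called is not given. At an unadjusted p under 0.05, edgeR gave 4 of 47 neighbours for Q over both sexes (8.51%, against 4.72% of all tested genes), namely Gba2, Rpp25l, Tpm2 and Ube2r2. It gave 0 for R over both sexes (1.34% of all genes). In Q males the count was 6 (12.8% against 5.1%), in Q females 2 (4.26% against 2.94%), in R males 1 (2.13% against 2.13%) and in R females 1 (2.13% against 1.92%). DESeq2 gave the same 6 counts at that threshold, again with no share of all tested genes beside them. Without the 2 libraries that stand apart, the counts were 0 for Q over both sexes (4.47% of all genes in that fit), 3 for Q males (Creb3, Dcaf12 and Melk; 4.91%) and 5 for R males (4.75%). Leaving out single libraries, these unadjusted counts ran from 1 to 6 for Q over both sexes, 3 to 9 for Q males, 1 to 6 for Q females, 0 to 1 for R over both sexes, 0 to 5 for R males and 0 to 2 for R females. The highest counts for Q females and R males came without male Q replicate 4. No neighbour passed in the direct comparison of Q with R either, where unadjusted counts were 1 over both sexes (3.93% of all genes), 4 in males (4.1%) and 2 in females (3.03%). The male count of Q against R was 12 without both libraries that stand apart (10.8% of all genes) and ran from 1 to 8 without single libraries. The shares of all tested genes behind the single-library ranges given here are not reported. Those ranges therefore describe the fits and cannot be read as a result about the neighbours. In the edgeR test of whether a genotype difference depends on sex, 0 were called and 3 for Q (3.11% of all genes) and 1 for R (2.82%) had an unadjusted p under 0.05.

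The sizes of these differences were small for most neighbours. The median absolute log2 fold change was 0.09 for Q and 0.05 for R over both sexes, beside 0.09 and 0.06 over all tested genes. Signed medians were 0.03 for Q and -0.01 for R, and 31 and 22 of 47 neighbours had positive values. The Q median was 0.0052 without the libraries that stand apart. The share of positive values over all tested genes is not given, so these counts do not show a lean of the neighbours. The 95% interval of the Q difference lay inside 0.5 on the log2 scale, a 1.41-fold change either way, for 38 of 47 neighbours. The 9 others were Kif24, Dnai1, Rpp25l, Cd72, Ccdc107, Car9, Tpm2, Hint2 and Melk. For R the interval lay inside that bound for 43 of 47, and the others were Kif24, Dnai1, Car9 and Melk.

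Medians by distance from Aqp3 were small in both genotypes. In Q over both sexes, the 22 tested neighbours within 1 Mb had a median log2 fold change of 0.07, the 15 between 1 and 2.5 Mb 0.01 and the 10 farther out 0.05, while 945 tested genes of chromosome 4 beyond 5 Mb had 0.0034. The R medians were 0.02, -0.04 and -0.01 in the same 3 classes. Leaving out the 2 libraries brought the Q median over all 47 neighbours from 0.03 to 0.0052, and the Q medians of the 3 classes, computed after the data were seen, to 0.02, -0.03 and 0.02. Within 5 Mb there were 48 further tested genes, and edgeR called none of them in Q or R against WT. Their smallest p for Q was that of Aqp7, the adjacent aquaglyceroporin gene 0.05 Mb before Aqp3, with a log2 fold change of -0.25 (edgeR adjusted p = 0.92), followed by Ndufb6 at 0.21 and Tmod1 at 0.28. For R they were Fbxo10 at -0.18, Ccl27a at 0.18 and Stra6l at -0.23. The Q value of Ndufb6 includes male Q replicate 4, at 328.5 CPM against 133.8 to 151.9 in the other male Q libraries.

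**Figure D2:**
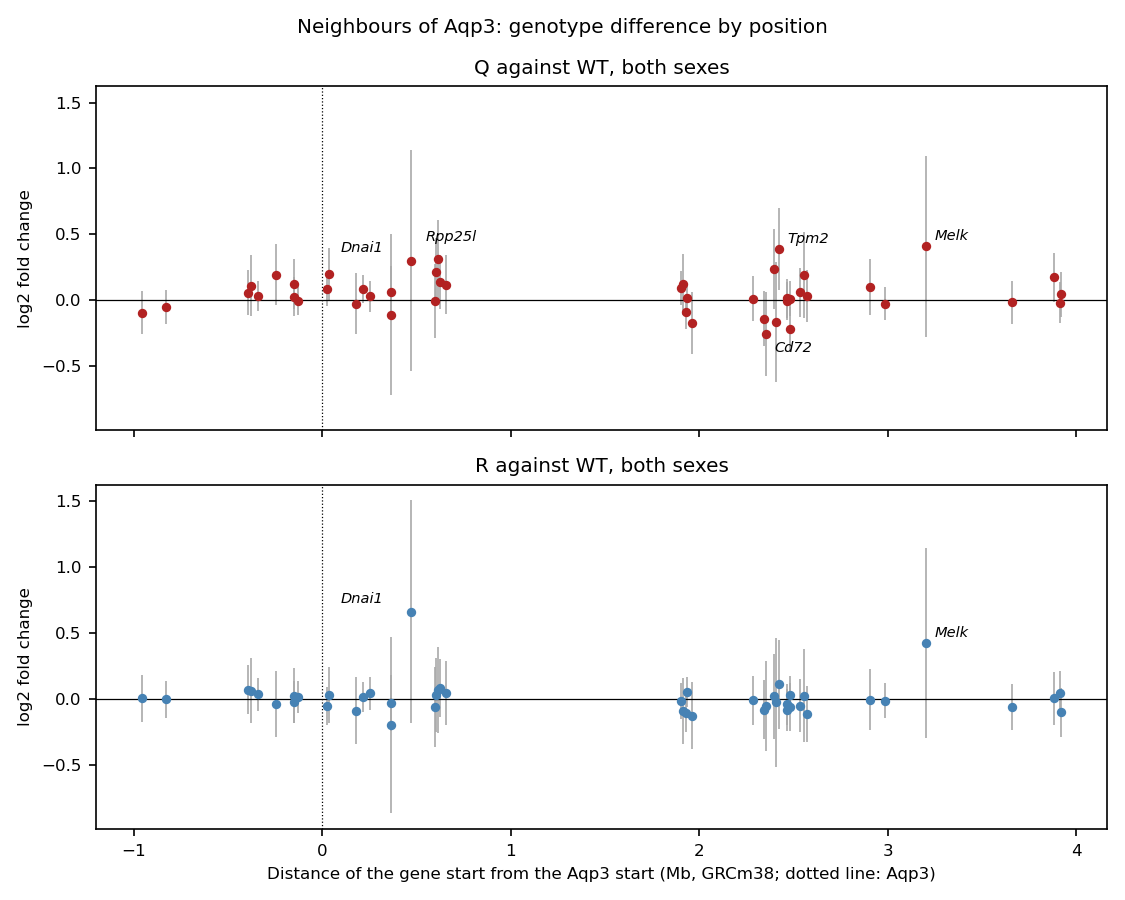
Log2 fold change of the 47 tested neighbours (y axis; bars are 95% intervals) by distance of the gene start from that of Aqp3 (x axis, Mb, GRCm38), for Q and R against WT over both sexes. Most points lie near 0 on both sides of Aqp3, and the widest intervals belong to the low-count genes Dnai1 and Melk.

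Grouped by role, with both sexes averaged, Q kidneys had a median log2 fold change from WT of 0.06 for 10 tested genes of protein quality control and ubiquitin, 0.04 for 10 of DNA repair, transcription and RNA, 0.02 for 10 metabolic and glycan enzymes, 0.01 for 10 of cytoskeleton and membrane traffic and 0.06 for 7 receptor, immune and other genes. The R medians of the same groups were 0.02, -0.02, -0.02, -0.01 and -0.05. 22 tested neighbours are not described singly with library values. They are Topors, an E3 ligase for ubiquitin and SUMO, and the DNA repair, transcription and RNA genes Aptx, Fancg, Smu1, Zcchc7, Zbtb5 and Creb3. Also among them are the enzymes Aco1, Galt, Gne, Nudt2 and Hint2. The cytoskeletal and traffic genes are Tln1, Clta, Dctn3, Kif24, Rgp1, Unc13b and Tesk1. The rest are the cytokine receptor chains Il11ra1 and Cntfr with Ccdc107. The Q values of these 22 ran from -0.17 (Unc13b, a priming factor of vesicle fusion) to 0.24 (Ccdc107). Their R values ran from -0.20 (Kif24, a kinesin of the centriole) to 0.08 (Dctn3, a dynactin subunit). Both Q extremes include male Q replicate 4. In that library Unc13b was at 4.98 CPM, against 9.2 to 13.1 in the other male Q libraries. Ccdc107 was at 515 CPM in it, against 198 to 208 in the others.

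Among metabolic and sugar-handling enzymes, the lowest p belonged to Gba2, the non-lysosomal glucosylceramidase. Gba2 was at 12.5, 12.8, 13, 13.1 and 14.4 CPM in WT males and 9.77, 11.9, 11.9, 12.2 and 12.5 in Q males. Female WT libraries held 13.3, 13.6, 14.5, 15.7 and 15.9 CPM and female Q 9.18, 12.1, 12.2, 12.9 and 14.3. The groups overlapped in each sex, and the 2 lowest Q values were those of the 2 libraries that stand apart. The log2 fold change over both sexes was -0.22 ± 0.08 (edgeR adjusted p = 0.92), and -0.15 without those libraries. Pigo, an enzyme of GPI-anchor assembly, had the second-lowest p for R over both sexes. It was at 34.8, 35, 35.8, 37 and 40.2 CPM in WT males and 29.9, 33.2, 33.3, 33.3 and 38.1 in R males. In females it was at 29.7, 32.6, 33.6, 33.9 and 35.1 CPM in WT and 28.2, 30.8 and 33.7 in R. The groups overlapped, with a log2 fold change of -0.11 ± 0.07 (edgeR adjusted p = 1).

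Among cytoskeletal genes, Tpm2, a tropomyosin of muscle and other contractile cells, was at 7.49, 9.49, 11.6, 13 and 13.1 CPM in WT males and 10.6, 10.7, 13.6, 13.9 and 26.9 in Q males. Female WT libraries held 11.6, 12.2, 13.1, 13.4 and 15.7 CPM of it and female Q 9.91, 13.4, 16.6, 17.9 and 23.9. The highest values of both Q groups were those of the 2 libraries that stand apart. The difference was 0.39 ± 0.15 log2 (edgeR adjusted p = 0.92) with them and 0.15 without. Smooth muscle markers (Acta2, Myh11, Tagln, Cnn1 and Des) summed to 56.1 to 86.2 CPM in WT males, 59.9 to 87.2 in Q males, 73.2 to 87.7 in WT females and 72.8 to 91.3 in Q females. None of the 5 was called, but edgeR called no tested gene at all in Q against WT. The absence of a call therefore says nothing about smooth muscle content, and the part of these markers in the Tpm2 values was not tested. In whole kidney, fewer cells of a type and less RNA per cell cannot be told apart. Dnai1 had 0 to 19 counts per library. It was at 0.0585, 0.14, 0.251, 0.252 and 0.399 CPM in WT females, 0.234, 0.334, 0.472, 0.615 and 0.658 in Q females and 0.19, 0.736 and 0.928 in R females. A single female R library lay among the WT values and the other 2 above all of them. The log2 fold change for Q against WT in females ran from 0.82 to 1.37 over the fits that left out single libraries. A positive difference in females was thus not particular to R. The R difference in females was 1.44 ± 0.57 log2 (edgeR adjusted p = 1), and in males the same comparison gave -0.12 ± 0.57. Markers of motile cilia summed to 4.68 to 5.79 CPM in WT females and 5.46 to 6.44 in R females, and their part in the difference was not tested.

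Rpp25l, a small protein related to subunits of RNase P, was the RNA-processing gene with the largest positive Q difference. It was at 14.6, 15.9, 16.1, 18 and 20.7 CPM in WT males and 13.5, 15.9, 16.6, 18 and 42.5 in Q males. In females it was at 16.1, 16.2, 17, 18 and 18.7 CPM in WT and 17.1, 18.2, 20, 21.1 and 29.5 in Q. The top value in each Q group was again that of a library that stands apart, and the other Q libraries overlapped WT. The log2 fold change went from 0.31 ± 0.15 (edgeR adjusted p = 0.92) to 0.03 without them. Polr1e, a subunit of RNA polymerase I, was at 10.6, 11.7, 12.2, 13.2 and 13.9 CPM in WT females and 9.02, 9.62 and 11.9 in R females, overlapping at the upper R value (-0.27 ± 0.14 log2, edgeR adjusted p = 1).

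Of the ubiquitin and protein-quality genes, Dcaf12, a substrate receptor of CUL4 ligases, was at 53.7, 59.5, 59.7, 60.3 and 64.4 CPM in WT males and 62.8, 64.2, 70.2, 70.7 and 71.8 in Q males. The male Q values sat high but overlapped WT (0.19 ± 0.07 log2, edgeR adjusted p = 0.917), and the value was 0.17 without the 2 libraries. Stoml2, a scaffold protein of the mitochondrial inner membrane, was at 85, 86.5, 91.5, 92.2 and 96.2 CPM in WT males and 87, 100, 100.5, 101 and 106 in R males. The ranges overlapped (0.13 ± 0.07 log2, edgeR adjusted p = 1). Tmem8b, a membrane protein grouped above with the receptor, immune and other genes, was at 8.26, 9.93, 10.2, 11.4 and 11.8 CPM in WT males and 7.13, 7.84, 8.21, 9.05 and 10.6 in R males, again overlapping (-0.27 ± 0.14 log2, edgeR adjusted p = 1).

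Melk, a kinase of dividing cells, had the smallest p of any neighbour in a comparison with WT, on 2 to 23 counts per library. It was at 0.131, 0.151, 0.236, 0.29 and 0.294 CPM in WT males, 0.325, 0.617, 0.684, 0.695 and 1.22 in Q males and 0.182, 0.471, 0.484, 0.56 and 0.865 in R males. In females it was at 0.234, 0.351, 0.378, 0.647 and 0.936 CPM in WT, 0.101, 0.236, 0.278, 0.281 and 0.559 in Q and 0.245, 0.474 and 0.488 in R. All male Q libraries were above all male WT libraries, and Melk was the 1 neighbour of 47 whose libraries did not overlap in that comparison, beside 0.74% of all tested genes in either direction, whereas the female Q values reached below female WT. The log2 fold change was 1.65 ± 0.47 in Q males (edgeR adjusted p = 0.795), 1.19 ± 0.48 in R males (adjusted p = 1) and -0.83 ± 0.46 in Q females (adjusted p = 1). The difference between the sexes in the Q effect was 2.48 log2 (edgeR adjusted p = 0.999). Cycling-cell markers (Mki67, Top2a, Cdk1, Ccnb1, Birc5 and Ccna2) summed to 8.52 to 12.6 CPM in WT males, 9.87 to 17.5 in Q males and 7.17 to 11.7 in R males, and their part in the Melk values was not tested.

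Cd72, a B cell surface receptor, was at 5.74, 6.23, 6.62, 6.67 and 13.8 CPM in WT females and 3.58, 4.35, 4.92, 5.93 and 7.67 in Q females. The highest female WT value was that of replicate 2. The log2 fold change was -0.57 ± 0.21 (edgeR adjusted p = 1) and -0.26 without that library. Of the immune-cell markers listed beside it, the 5 of T cells (Cd3d, Cd3e, Cd3g, Lck and Cd2) summed to 3.51 to 7.86 CPM in WT females, highest in replicate 2, and 4.07 to 6.39 in Q females. 4 markers of B cells (Cd79a, Cd79b, Ms4a1 and Cd22) summed to 2.11 to 4.56 CPM in WT females, with 4.54 in replicate 2, and 2.15 to 3.56 in Q females. None of these 9 was called in Q females, where edgeR called no tested gene at all, so this says nothing about immune-cell content. The part of these markers in the Cd72 values was not tested.

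Ube2r2, Rpp25l and Tpm2 each had their highest value in male Q replicate 4. That library was the highest of its group for 23 of 47 neighbours and for 36.4% of all tested genes. Its deviation from the group median fell with exon length over the 47 neighbours (Spearman correlation -0.58), as did that of female Q replicate 5 (-0.62). The Spearman correlations of the other 26 libraries ran from -0.53 to 0.66, so other libraries had slopes of like size in either direction. Some short transcripts, such as Rpp25l (856 bases of exon) and Bag1 (1349 bases), were high in male Q replicate 4, and Ubap2 (4802 bases) was low. Others went against that order. Il11ra1 (4471 bases), Ube2r2 (4189 bases) and Aptx (5886 bases) were 1.11, 0.98 and 0.65 log2 above the group median in that library. Over 17175 genes with a length the Spearman correlation was -0.40 in male Q replicate 4 and -0.20 in female Q replicate 5. These correlations run across genes of 1 library, which are not independent replicates, and what they share with mitochondrial content was not tested.

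**Figure D3:**
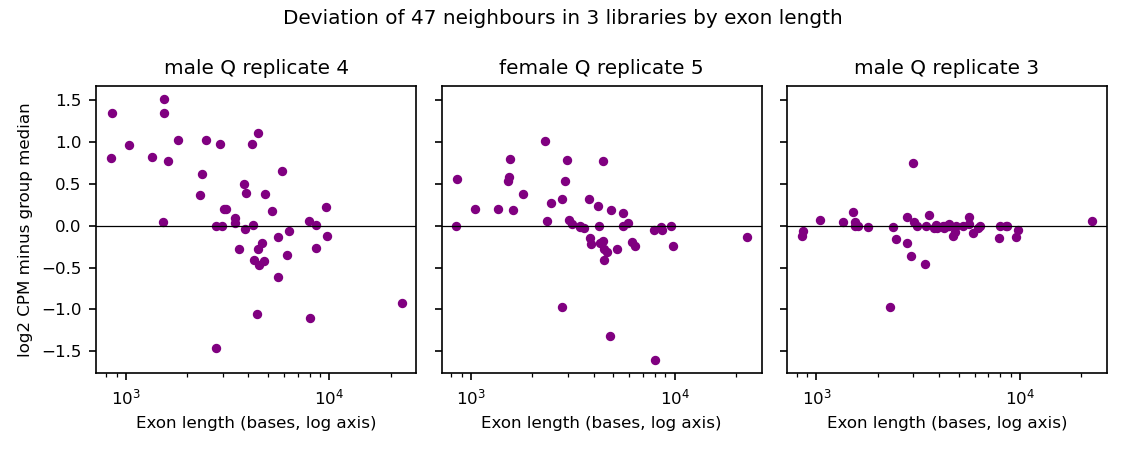
Deviation of the 47 tested neighbours from their group median (y axis, log2 CPM) by exon length (x axis, bases, log axis) in male Q replicate 4, female Q replicate 5 and, for comparison, male Q replicate 3. Short genes tend to sit higher than long ones in the first and second panels, with exceptions such as Aptx (5886 bases, 0.65 in the first). The third panel has a Spearman correlation of -0.07.

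Several neighbours differed between the sexes. Between male and female WT libraries edgeR called 10 of 47 neighbours (21.3%, against 16.5% of all tested genes), 7 higher in males (8.22% of all genes) and 3 lower (8.31%). The male and female WT libraries of 11 neighbours did not overlap, beside 17.1% of all genes. Without female WT replicate 2, whose Xist goes against its label, 6 were called (Car9, Dnaja1, Grhpr, Npr2, Rusc2 and Vcp), and so were 13.5% of all genes. By role, the called genes were 4 of 10 in protein quality control (Dnaja1, Dcaf12, Ubap1 and Vcp, all higher in males), 3 of 10 metabolic enzymes (B4galt1, Grhpr and Car9, all higher), 1 of 10 cytoskeletal genes (Rusc2, lower), 2 of 7 receptor and immune genes (Npr2 and Cd72, both lower) and 0 of 10 genes of DNA repair, transcription and RNA.

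Npr2, the receptor for C-type natriuretic peptide, differed most clearly. It was at 17.1, 19.8, 20.7, 24.5 and 24.5 CPM in WT males and 36.7, 39.3, 39.8, 41 and 49.5 in WT females, with no overlap, a log2 fold change for males against females of -0.95 ± 0.13 (edgeR adjusted p = 1.68e-06). Rusc2, a Rab effector of vesicle traffic, was at 14.7, 15.8, 17, 18.7 and 18.8 CPM in WT males and 22.3, 25, 25.6, 25.9 and 27.8 in WT females, also with no overlap (-0.58 ± 0.12, edgeR adjusted p = 0.000697). Both were lower in males. Cd72 was at 3.77, 4.17, 4.84, 5.03 and 6.76 CPM in male WT against the female values above (-0.67 ± 0.22, edgeR adjusted p = 0.0285), and the value was -0.36 without female WT replicate 2.

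Grhpr was at 282, 304, 305, 309.8 and 343 CPM in WT males and 179, 195, 204, 212 and 226 in WT females (0.61 ± 0.13, edgeR adjusted p = 0.000991). Dnaja1, an Hsp40 cochaperone, was at 401, 448, 487, 569 and 780.0 CPM in WT males and 299, 326, 346, 348 and 349 in WT females (0.69 ± 0.16, edgeR adjusted p = 0.00221). Neither pair of groups overlapped. Vcp, the segregase that pulls ubiquitinated proteins out of membranes and complexes, was at 334, 353, 362, 376 and 391 CPM in WT males and 252, 259.9, 285, 288 and 300.5 in WT females (0.39 ± 0.09, edgeR adjusted p = 0.0018). Car9, a hypoxia-inducible carbonic anhydrase, was at 6.25, 6.64, 7.5, 7.84 and 10.3 CPM in WT males and 1.64, 2.77, 3.22, 3.36 and 5.57 in WT females (1.21 ± 0.31, edgeR adjusted p = 0.00627). These groups did not overlap either, and Car9 had the largest sex difference of the called neighbours.

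B4galt1, the galactosyltransferase that extends N-glycans, was at 39.5, 39.6, 39.8, 57.9 and 66.8 CPM in WT males and 26.7, 28.5, 32.5, 36.3 and 48.9 in WT females, with overlap (0.50 ± 0.16, edgeR adjusted p = 0.0286). Dcaf12 was at the male values above and at 47.5, 49.8, 50.9, 51.8 and 52.6 CPM in WT females, with no overlap (0.24 ± 0.07, edgeR adjusted p = 0.0204). Ubap1, a subunit of the ESCRT-I complex, was at 60, 61.2, 63.4, 67.1 and 71 CPM in WT males and 48.4, 54.4, 56.1, 57.5 and 59.1 in WT females, with no overlap (0.23 ± 0.08, edgeR adjusted p = 0.0493). Leaving out single libraries ended the call of B4galt1 (male WT 1 and 5, female WT 2, 4 and 5), Cd72 (male WT 1 to 4, female WT 2), Dcaf12 (male WT 2, female WT 2) and, in 13 of 28 fits, Ubap1. Of the 7 heat shock genes listed beside them, Hsp90aa1 was called (0.71 log2 higher in males, edgeR adjusted p = 0.0122) and the other 6 were not. The 7 summed to 2110 to 4860 CPM in WT males and 2230 to 2560 in WT females, and their part in the Dnaja1 and Vcp values was not tested.

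**Figure D4:**
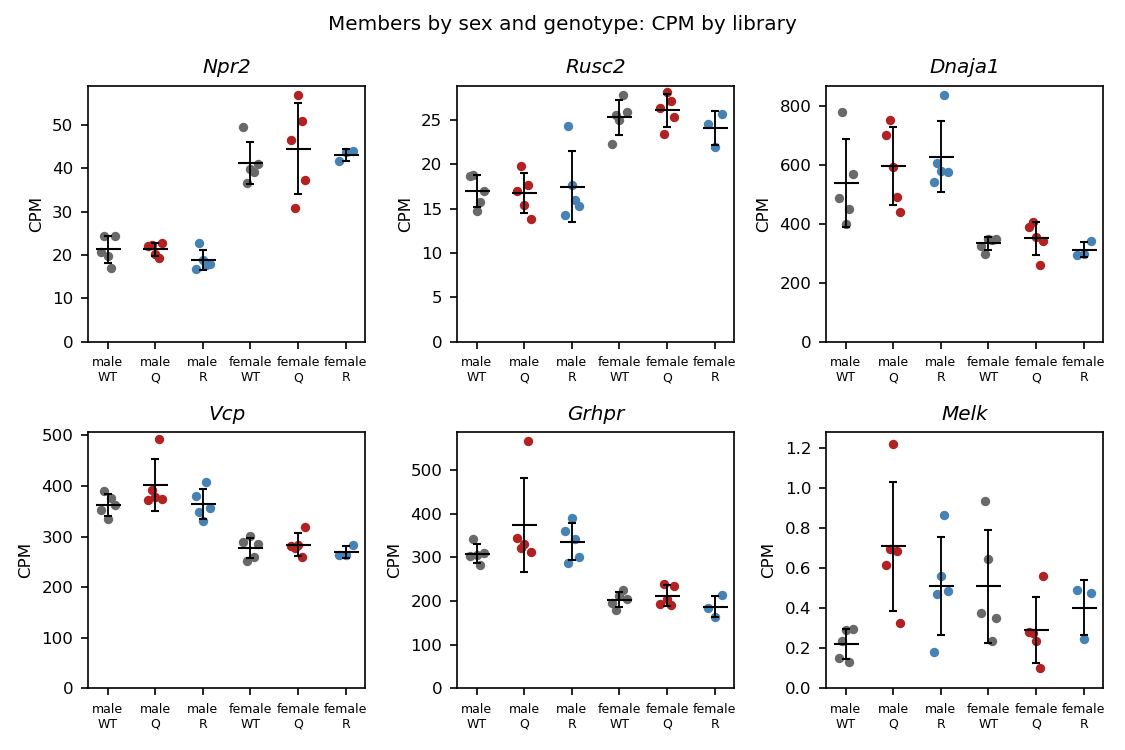
Level of 6 neighbours in each library (y axis, CPM, from 0) by sex and genotype (x axis); points are libraries, and the bar with whiskers is the group mean ± SD. Npr2 and Rusc2 are lower and Dnaja1, Vcp and Grhpr higher in WT males than in WT females, while Melk overlaps.

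The sex differences were measured again in the Q and R libraries, which share no library with WT; these comparisons were added after the WT result was seen. edgeR called 17 of 47 neighbours between the sexes in Q (36.2%, against 23.1% of all genes) and 10 in R (21.3%, against 14.1%). The R count was 16 without the 2 libraries that stand apart, which are no R libraries (23.9% of all genes), and 5 with no filter on low counts (4.77%). All 10 neighbours called in WT had the same sign in both. In Q 9 of the 10 were called in the same direction, Cd72 being the exception, and in R 7 were. Car9, Dcaf12, Dnaja1, Grhpr, Npr2, Rusc2 and Vcp were called in WT, Q and R alike. The share of all genes called in WT that were called again in Q or R is not given. These repeat calls therefore cannot be read as a trait of the neighbours. Npr2, for example, had log2 fold changes of -1.06 ± 0.13 in Q and -1.19 ± 0.14 in R, and Grhpr 0.82 ± 0.13 and 0.85 ± 0.15. The Q value of Grhpr includes male Q replicate 4, at 566 CPM against 312 to 344 in the other male Q libraries.

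**Figure D5:**
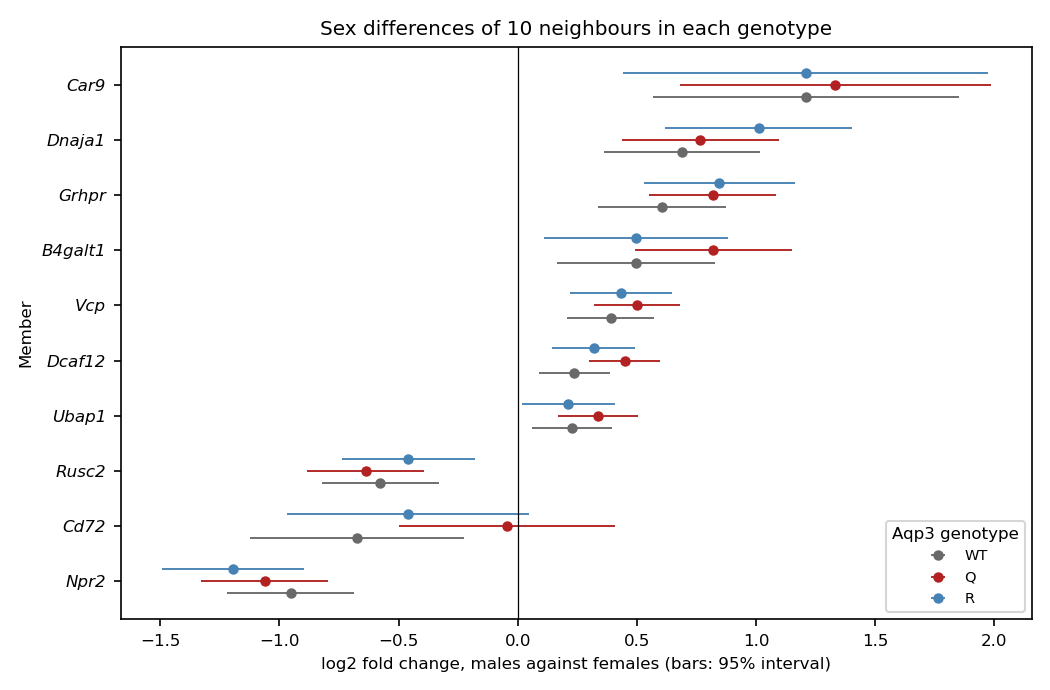
Log2 fold change of males against females (x axis; bars are 95% intervals) for the 10 neighbours called in WT (y axis), in WT, Q and R libraries. Points of the 3 genotypes lie on the same side of 0 for every gene, and the intervals of Cd72 in Q and R span 0.

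How neighbours varied together from library to library is given as a description. Over 28 libraries with group means removed, Pearson r is given for pairs on opposite strands that start 113 to 359 bases apart. The divergent pairs Bag1 and Chmp5 and Kif24 and Nudt2 had 0.31 and -0.19. Gba2 and Rgp1 had 0.49 and Tln1 and Creb3 -0.41. Without the 2 libraries that stand apart, these values were 0.42, 0.02, 0.22 and -0.39. Exons of Gba2 and Rgp1 overlap, as do those of Tln1 and Creb3. The counting used no strand, so their r is less certain. The median r over all 1081 pairs of neighbours was 0.008, and over the 81 pairs starting within 0.1 Mb of each other it was -0.02. Without the 2 libraries the medians were 0.01 and 0.07. The libraries behind each r are the same, so depth and RNA length are shared among the pairs.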

How the data were processed

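Each library is a whole-kidney RNA sequencing library, and the deposited table holds raw read counts per Ensembl gene. Per the file headers, the authors counted paired reads over exons with featureCounts 2.0.1, with no strand option, on GRCm39 with Ensembl 107. The submitters' processing notes also list Trim Galore 0.6.7, SAMtools 1.6, Subread 2.0.1 and DESeq2 1.38.3, and the aligner is not given in the sources used here. Positions, exon lengths and overlaps came from GENCODE release 21 and RefSeq, both on GRCm38, so distances are stated on that build and Dnai1 was matched through its synonym Dnaic1.

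From the counts, edgeR 4.0.16 in R 4.3.3 fitted 1 robust quasi-likelihood model to 28 libraries with a mean for each of 6 groups, after its default filter on low counts (17573 genes, 99.91% of counts) and trimmed-mean scaling. A both-sexes contrast is the mean of the male and female contrasts. Benjamini-Hochberg adjustment ran over all tested genes, with a threshold of 0.05. SE is the absolute log2 fold change over the root of F, and 95% intervals use 22 residual degrees of freedom. The code was tested on simulated data. Alternatives were DESeq2 1.42.0, its size factors in edgeR, no filter, a replicate block, each library left out in turn, and both libraries that stand apart left out. Genes named with values are those called in a planned contrast, the 3 lowest p in each comparison with WT, the 4 lowest between sexes in WT, the 3 nearest on each side, and the 3 lowest p among other genes within 5 Mb. Members and lists were chosen with earlier results of these data known. One B cell marker and 1 exon overlap are not reported here, and marker lists of adipocytes and urothelium were not used beside a result.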

Additional observations from a re-analysis of the deposited data

Results flagged for a closer look

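In 125 groups of 5 libraries, 1 for each named neighbour and group, the gap between the extreme library and the rest was above Dixon's critical value of 0.71 of the range in 14, where chance flags about 1 in 20 independent groups. These groups are not independent, because they share libraries and several neighbours were named for comparisons that male Q replicate 4 enters. Male Q replicate 4 was the extreme library in 9 of them. It was the highest of its group for Ube2r2 (363 CPM against 178 to 185), Rpp25l (42.5 against 13.5 to 18), Tpm2 (26.9 against 10.6 to 13.9), Grhpr (566 against 312 to 344), Vcp (494 against 373 to 392) and Bag1 (568 against 297 to 333). It was the lowest for Gba2 (9.77 CPM against 11.9 to 12.5), Tmem8b (7.71 against 11.6 to 12.4) and Ubap2 (49 against 62.5 to 67.8). Its mitochondrial share was 7.74% and its median deviation over the neighbours 0.06 log2 above the group median, and their part in these values was not tested.

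The 5 others came from different libraries. Female WT replicate 2, which lacks Xist, was the highest of its group for Cd72 (13.8 CPM against 5.74 to 6.67). Male R replicate 3 was the highest for Rpp25l (22.8 CPM against 17 to 18.2), male R replicate 2 for Ubap2 (65.1 against 47.7 to 52.7) and male R replicate 4 for Dnaja1 (838 against 540.0 to 606). Female WT replicate 4 was the lowest for Nol6 (29 CPM against 31.7 to 32.6).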

How the results depend on the processing

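No neighbour was called in a comparison of Q or R with WT under any alternative: DESeq2, its size factors in edgeR, no filter on low counts, the replicate block, and leaving out any 1 library or both that stand apart. Shares of all tested genes called in these comparisons with WT are not given for the alternatives. The absence of calls there is thus not particular to the neighbours. Between the sexes in WT, 6 were called without female WT replicate 2, and leaving out single libraries gave 6 to 12. In Q the single-library range was 15 to 20. In R the count was 5 with no filter on low counts and 16 without both libraries that stand apart, with a single-library range of 7 to 15, and the cause was not tested. For Nfx1 in Q, DESeq2's size factors gave 0.0048 and its Wald test 0.005, against -0.0029. Without both libraries, Chmp5 in Q was -0.0476 and Ubap2 in Q 0.1034. Leaving out single libraries, the log2 fold change ran from -0.0189 to 0.0145 for Nfx1 in Q, -0.0207 to 0.0671 for Nfx1 in R, -0.0023 to 0.0518 for Bag1 in R, -0.0453 to 0.0595 for Chmp5 in Q, -0.0377 to 0.0057 for Chmp5 in R and -0.0798 to 0.0672 for Ubap2 in Q. The replicate block left 9 neighbours called between the sexes in WT, 16 in Q and 10 in R, Ubap1 losing its call. The share of all tested genes called with the replicate block is not given, nor are those behind the single-library ranges between the sexes. These counts therefore describe the fits and cannot be read as a result about the neighbours. Over 65 same-numbered pairs the correlation of deviations ran from -0.29 to 0.21, 5 pairs were over 0.1, and 5 of 28 libraries matched their own number best, so the numbers were not taken as pairs. Low counts limit Melk and Dnai1, whose intervals reach past a 2-fold change.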
